A study of Mus musculus with 2 samples.

Results

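The genes of tumour necrosis factor and the lymphotoxins, with their receptors, were followed through the immune cells of the inflamed mouse colon. The set held 8 of the 32228 genes in the count matrices. The ligands were Tnf, Lta, Ltb and Tnfsf11, the receptors were Tnfrsf1a, Tnfrsf1b and Ltbr, and Tnfaip3 is a regulator and target of the pathway. They were chosen by name and not by their values. Each was counted in 10 classes of cells gated by marker genes, none of which was one of the 8, which gave 80 pairs of gene and class.

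There were 2 groups with 1 library each. The WT library held wild-type C57BL/6 colon cells, and the Ring1AKO library held those of mice that lack Ring1, the gene of the Polycomb E3 ubiquitin ligase Ring1A, in the whole body. Both groups were 8 to 10 weeks old according to the labels and had dextran sulfate sodium (DSS) colitis, caused by DSS in the drinking water. The cells of several mice of a group were pooled, the epithelium was stripped, and live CD45+ (7-AAD-) lamina propria cells were sorted before 10x 3′ sequencing. With 1 library a group there was no test: every interval below is an exact 95% interval that covers counting error only, and genotype, pool and library cannot be told apart.

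Tumour necrosis factor is a cytokine made above all by activated myeloid and T cells, and it is the target of antibodies used against inflammatory bowel disease. It is shed from the cell surface and binds TNFR1 (Tnfrsf1a), which most cells carry, and TNFR2 (Tnfrsf1b), which is found mainly on immune cells. Lymphotoxin-α (Lta) is secreted as a trimer that binds the same receptors, or joins lymphotoxin-β (Ltb) on the cell surface in a heterotrimer that binds the lymphotoxin-β receptor (Ltbr) on myeloid and stromal cells. RANKL (Tnfsf11) binds RANK, and in the gut its known sources include innate lymphoid cells and the stroma under the epithelium that covers lymphoid follicles. A20 (Tnfaip3) edits ubiquitin chains to switch off NF-κB signalling, and NF-κB induces its gene.

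Ltb, Tnf and Lta lie side by side. On mouse chromosome 17 (GRCm38, GENCODE vM21 annotation) Ltb runs from 35194439 to 35196320 on the + strand, Tnf from 35199381 to 35202007 on the − strand and Lta from 35203165 to 35205351 on the − strand. The whole cluster spans 10.9 kb, with 3060 bases between Ltb and Tnf and 1157 bases between Tnf and Lta. Ring1 is on the same chromosome, from 34020792 to 34024680, 1170 kb away from Ltb. Tnfrsf1a (chromosome 6, 125349362 to 125362484, + strand) and Ltbr (chromosome 6, 125306571 to 125313885, − strand) flank the same gene, Scnn1a. Tnfrsf1b is on chromosome 4 (145213463 to 145246870), Tnfaip3 on chromosome 10 (19000910 to 19015657) and Tnfsf11 on chromosome 14 (78277445 to 78308043), all on the − strand. Annotated microRNA genes overlap Lta and Ltb, and no annotated gene overlaps the other 6.

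Among these neighbours, as the levels below show, Tnf was highest in myeloid classes and Lta and Ltb in ILC3. The 3 upstream sequences of the cluster are shown for that reason. They are from RefSeq on GRCm38.p6 and read 5′ to 3′ on the strand of the gene, ending at the base before the GENCODE start of the gene. Capitals mark a match to TATAAA or to the NF-κB consensus. That of Tnf is chr17:35202008-35202257 (− strand), that of Lta is chr17:35205352-35205601 (− strand) and that of Ltb is chr17:35194257-35194438 (+ strand), which was shortened to 182 bases because the RefSeq start lies 68 bases inside the GENCODE gene.
Tnf: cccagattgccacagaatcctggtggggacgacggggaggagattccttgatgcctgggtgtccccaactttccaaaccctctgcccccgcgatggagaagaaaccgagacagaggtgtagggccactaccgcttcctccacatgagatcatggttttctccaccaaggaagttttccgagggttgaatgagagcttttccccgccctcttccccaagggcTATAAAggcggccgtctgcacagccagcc
Lta: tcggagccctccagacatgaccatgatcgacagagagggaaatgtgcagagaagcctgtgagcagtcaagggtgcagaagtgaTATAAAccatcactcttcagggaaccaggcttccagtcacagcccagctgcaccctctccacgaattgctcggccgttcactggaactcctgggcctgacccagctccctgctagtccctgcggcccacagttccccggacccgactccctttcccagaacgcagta
Ltb: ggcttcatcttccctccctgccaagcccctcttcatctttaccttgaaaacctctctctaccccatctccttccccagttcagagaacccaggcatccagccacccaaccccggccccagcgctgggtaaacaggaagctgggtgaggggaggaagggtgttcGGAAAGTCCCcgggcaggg

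Both strands of the 250 bases before each start were searched for these motifs, and all 8 genes had such a window. TATAAA lay 29 bases before the start of Tnf and 167 bases before that of Lta. The NF-κB consensus lay 87 bases before the RefSeq start of Ltb, on the opposite strand, which is 19 bases before the end of the sequence shown, and was found in neither of the other 2 windows of the cluster. Outside the cluster, 1 Tnfaip3 window held the NF-κB consensus 125 and 12 bases before the start and TATAAA 225 bases before it. Of that window 247 bases lay inside the GENCODE gene. Tnfsf11 had TATAAA 32 bases before its start, on the opposite strand. The other Tnfaip3 window and those of Tnfrsf1a, Tnfrsf1b and Ltbr held neither motif. Among all 32851 windows of this length, 12.4% held TATAAA and 7.25% the NF-κB consensus. No match says only that these letters are not in this window.

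The libraries held 74414511 (WT) and 81862096 (Ring1AKO) unique molecular identifiers (UMIs), and 6005 and 7918 cells passed the filters, with medians of 6354 and 5035 UMIs. The classes held between 77 and 3598 cells. Monocytes were 11.7% of WT cells and 2.60% of Ring1AKO cells, whereas B cells were 19.7% and 45.4%, so sums over all cells mix different classes. Leading genes outside the gates fitted the class names, except that Il17a and Il17f were among those of the WT ILC2 class. The gates themselves left out cells with 2 or more epithelial or fibroblast markers. Of the cells in the 10 classes, 2 in each library had 2 or more of 4 endothelial markers, and 11 barcodes were present in both libraries. Ring1 itself was counted 828 times in WT cells and 816 times in Ring1AKO cells (13.4 and 11.8 CPM), so 3′ counts did not show the deletion and the genotype was taken from the label.

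Levels are UMIs per 1000000 UMIs of the class (CPM). A pair was compared when it held at least 50 UMIs over both libraries, and a difference was counted from 1.5-fold. Of the 57 pairs that reached 50 UMIs, 6 were higher and 4 lower in Ring1AKO and 47 were neither, which is 17.5% past 1.5-fold. Over all genes the same count gave 18.2% to 30.7% by class, so the 8 genes as a set stood just under the range of the background. By direction, 2.30% to 11.8% of all genes were higher and 11.7% to 21.8% lower. In these classes the median log2 ratio of all genes was −0.19 to −0.04. With that median set to 0, the split was 8 higher and 2 lower. The shares of all genes above are not on that scaling, so they are no background for this split.

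**Figure D1:**
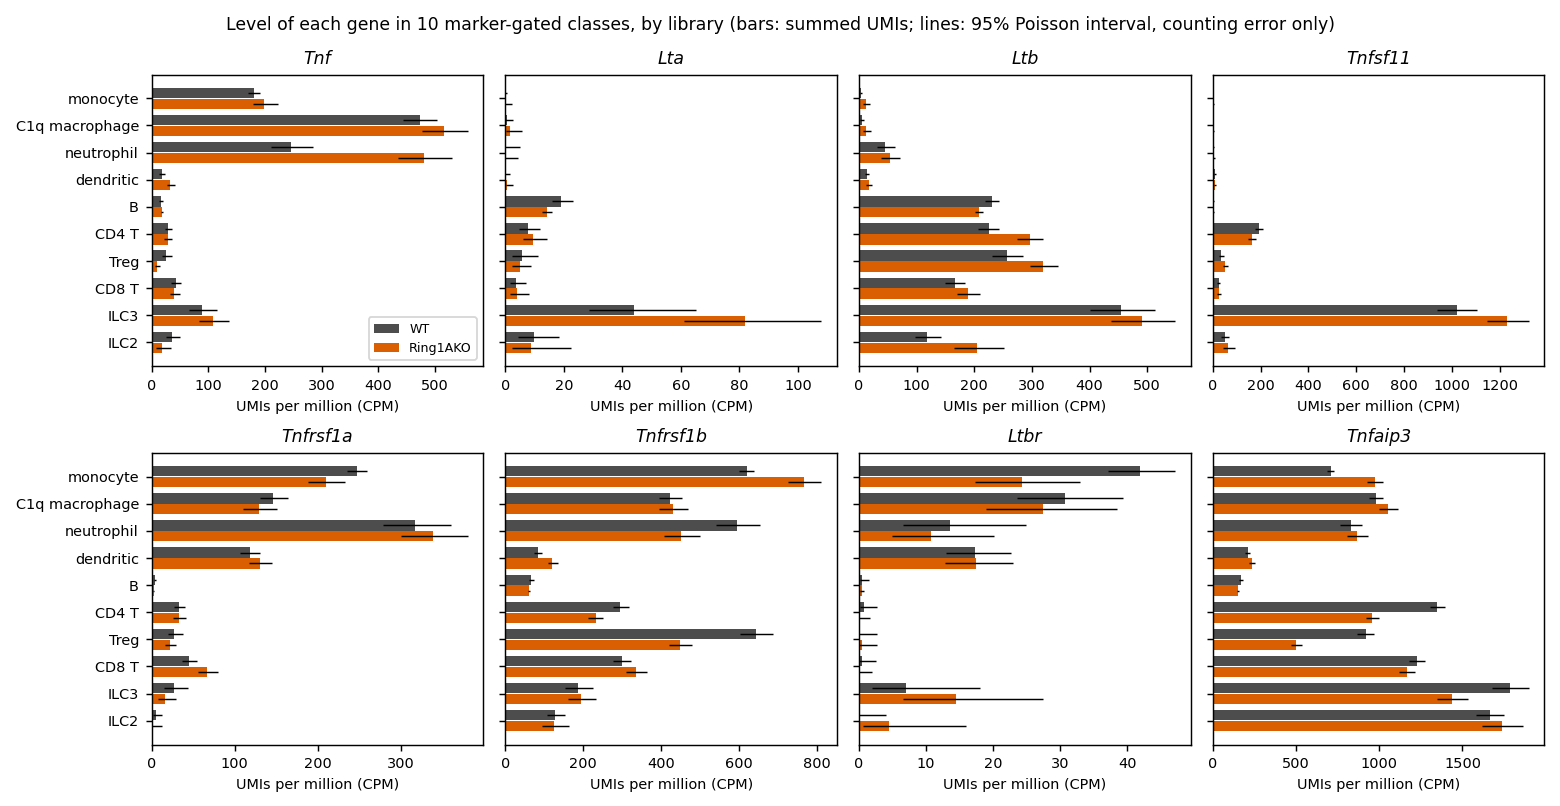
Level of each of the 8 genes (panels) in the 10 classes (vertical axis), in CPM on a linear horizontal axis whose range differs between panels. Grey bars are the WT library, orange bars the Ring1AKO library, and lines are 95% Poisson intervals of the counts. Tnf, Tnfrsf1a and Ltbr were highest in myeloid classes, and Lta, Ltb and Tnfsf11 were highest in the ILC3 class.

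Tnf was highest in 3 myeloid classes in both libraries. C1q macrophages, the resident-type macrophages that carry complement C1q, held 473 CPM in WT and 515 CPM in Ring1AKO, a log2 ratio of 0.12 (−0.02 to 0.27). Monocytes held 180.4 and 199 CPM (log2 ratio 0.14), so neither of these classes differed by 1.5-fold. The background of genes past 1.5-fold was 18.8% in C1q macrophages, where 0 of 5 compared members passed it.

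The monocyte class was made up differently in the libraries. In a graph clustering of all cells, WT monocytes were split between cluster 9 (338 cells, 48.3%) and cluster 12 (308 cells, 44.0%), whereas 79.1% of Ring1AKO monocytes (163 cells) were in cluster 9. Values for monocytes therefore compare different mixtures of cells. Within cluster 9 alone, Tnf was 115 CPM in WT and 216 CPM in Ring1AKO, a log2 ratio of 0.91 (0.68 to 1.14) that was past 1.5-fold, beside 24.6% of all genes. Cluster 12 also held 28.6% of WT C1q macrophages, while cluster 8 held most of that class in both libraries (62.9% and 91.1%). The leading cluster of B cells differed too, at 43.1% of WT cells in cluster 2 and 32.5% of Ring1AKO cells in cluster 1.

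Neutrophils held more Tnf in Ring1AKO. Their level was 245 CPM (181 UMIs) in WT and 481 CPM (406 UMIs) in Ring1AKO, a log2 ratio of 0.97 (0.71 to 1.23), or 1.15 relative to the median gene. In this class 29.7% of all genes passed 1.5-fold, as did 1 of the 5 compared members. In WT the intervals of the 3 leading classes, C1q macrophages, neutrophils and monocytes, did not overlap, whereas in Ring1AKO neutrophils were level with C1q macrophages (435 to 529.6 against 476 to 557 CPM). When cells were classed by graph clusters instead, neutrophils had the highest Tnf level in both libraries (280.4 and 379 CPM) and the difference fell within 1.5-fold (0.43), and with 1 more marker required it was 0.53.

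The neutrophil Tnf UMIs came from few cells. At least 1 Tnf UMI was found in 28.8% of WT and 41.4% of Ring1AKO neutrophils. In plasma cells, where its level was low (1.49 and 1.55 CPM), the shares were 2.77% and 3.92%. Thinned to 1000 UMIs a cell, the shares were 16.6% and 21.3% in neutrophils and 0.185% and 0.218% in plasma cells. Median depths were 4110 and 4851 UMIs in neutrophils and 27232 and 35505 in plasma cells. The top 10% of neutrophils held 76.2% and 73.2% of the Tnf UMIs, and the richest cell held 26 UMIs in WT and 97 in Ring1AKO. Without these cells the log2 ratio was 0.79.

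Genes that tissue digestion can induce (Fos, Jun, Egr1, Hspa1a and 6 others) had a median log2 ratio of −0.35 in neutrophils, with 1 higher and 1 lower of 10, and summed to 12998 CPM in WT and 9855 CPM in Ring1AKO. Their part in the Tnf values was not tested.

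Dendritic cells held little Tnf, 18.0 CPM (56 UMIs) in WT and 33.3 CPM (92 UMIs) in Ring1AKO, a log2 ratio of 0.88 (0.39 to 1.40). Beside it, 24.1% of all genes in this class passed 1.5-fold, and 1 of 7 compared members did. Cross-presenting cDC1 cells (83 and 63 cells) had 15.3 and 37.8 CPM, with intervals that did not overlap. In cDC2 cells (17.9 and 30.2 CPM) and migratory dendritic cells (27.5 and 31.9 CPM) the intervals overlapped. The top 10% of dendritic cells held 83.9% and 82.6% of the Tnf UMIs. With classes from graph clusters the class difference fell within 1.5-fold. It was 0.01 when each cell was thinned to 1000 UMIs, which left few UMIs. In a separate draw 2 WT and 4 Ring1AKO dendritic cells held a Tnf UMI.

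Regulatory T cells went the other way. Tnf in this class was 25.7 CPM (36 UMIs) in WT and 9.74 CPM (20 UMIs) in Ring1AKO, a log2 ratio of −1.37 (−2.27 to −0.58). Both levels lay under those of cell-free barcodes (71.1 and 50.2 CPM). A Tnf UMI was in 19 of 206 WT and 15 of 221 Ring1AKO cells, shares whose intervals overlapped (5.64% to 14.0% and 3.85% to 10.9%). The richest cells held 6 and 3 UMIs, so no single cell set the log2 ratio. It was past 1.5-fold under each of the 13 alternatives run for ratios (−2.15 to −1.21), one of 2 such pairs, the other being Lta in ILC3. Here 30.7% of all genes passed 1.5-fold, and 3 of the 6 compared members did. The digestion genes had a median of −0.42 in Treg cells, with 3 of 10 lower, and their part was not tested.

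Among the other lymphoid classes ILC3 led, with 88.3 and 108 CPM of Tnf (log2 ratio 0.28, −0.26 to 0.84). CD8 T cells had 42.7 and 40.4 CPM, CD4 T cells 29.6 and 28.2 CPM and B cells 16.1 and 17.9 CPM, and none of these differed by 1.5-fold. In ILC2 the 33 and 8 Tnf UMIs of the libraries were too few to compare.

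Lta was a lymphoid transcript and its 2 leading classes were ILC3 and B cells. ILC3, the RORγt innate lymphoid cells whose fetal kin induce lymph nodes, held 44.1 CPM (25 UMIs) in WT and 81.9 CPM (51 UMIs) in Ring1AKO, a log2 ratio of 0.86 (0.18 to 1.64). The background in ILC3 was 20.7%, and this was the only one of 6 compared members past 1.5-fold. It was also past 1.5-fold under each of those 13 alternatives (0.67 to 0.91), which largely reuse the same few cells. An Lta UMI was in 15 of 77 WT and 23 of 84 Ring1AKO ILC3, shares whose intervals overlapped (11.3% to 30.1% and 18.2% to 38.2%). The top 10% of cells held 72.0% and 70.6% of the UMIs. Lta was higher in Ring1AKO both in ILC3 with a Ccr6 UMI (56.7 and 93.4 CPM) and in those without (35.6 and 73.3 CPM), on 12 to 26 UMIs each with intervals that overlapped.

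In B cells Lta was 19.2 CPM in WT and 14.2 CPM in Ring1AKO (log2 ratio −0.44, −0.76 to −0.11), short of 1.5-fold. CD4 T cells had 7.77 and 9.53 CPM, on too few UMIs to compare. Monocytes and neutrophils had 0 Lta UMIs in both libraries, although Tnf, 1157 bases away, was counted at least 181 times in each of these sums. A count of 0 allows at most 0.448 and 1.82 CPM in monocytes and 4.06 and 3.55 CPM in neutrophils.

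Ltb was highest in ILC3 and was found in every lymphoid class. ILC3 held 454 and 490.1 CPM (WT and Ring1AKO), Treg cells 257 and 319.9 CPM, and CD4 T cells 225 and 296 CPM (log2 ratio 0.40, 0.24 to 0.56). B cells had 231 and 209 CPM and CD8 T cells 166 and 189 CPM. Of the 8 classes compared, 7 were above 0 with a median of 0.28, and B cells, at −0.14, were above 0 as well (0.04) once the median gene was set to 0. The ILC2 class alone passed 1.5-fold, with 118 CPM (109 UMIs) in WT and 205 CPM (93 UMIs) in Ring1AKO (log2 ratio 0.80, 0.38 to 1.21). All genes in ILC2 had a background of 26.4%, and 1 of 4 compared members passed. The richest ILC2 cell held 19 of the 93 UMIs in Ring1AKO against 6 in WT, and without these cells the ratio was 0.57, within 1.5-fold. It was also within 1.5-fold with graph clusters and with 1 more marker required, and its lowest value over the alternatives was 0.30.

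Myeloid classes held far less Ltb. It was 3.89 and 12.1 CPM in monocytes and 4.87 and 12.9 CPM in C1q macrophages, under the levels of 64.1 and 101 CPM in barcodes without cells. Neutrophils had 44.7 and 53.3 CPM and dendritic cells 13.5 and 17.4 CPM. An Ltb UMI was present in 83.1% and 75.0% of ILC3 and in 52.6% and 49.0% of B cells, against 3.57% and 6.31% of monocytes. After thinning these shares were 33.8% and 38.1%, 18.5% and 17.1%, and 0.429% and 0.971%.

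ILC3 with a Ccr6 UMI had 454 CPM in WT and 624 CPM in Ring1AKO, and ILC3 without one had 454 and 389 CPM. The intervals of the libraries overlapped in both subsets. CD4 T cells with an Il17a or Il17f UMI (88 and 45 cells) had 269 and 266 CPM, and those without (335 and 300 cells) had 208 and 303 CPM. In the cells without an Il17 UMI the intervals of the libraries did not overlap (189 to 229.5 against 279 to 329), and in those with one they did (232 to 309 against 219.6 to 319). The difference between the subsets was not tested.

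Tnfsf11 was highest in ILC3, far above the next class. ILC3 held 1019 CPM (577 UMIs) in WT and 1229 CPM (765 UMIs) in Ring1AKO, a log2 ratio of 0.27 (0.11 to 0.43) that stayed within 1.5-fold. A UMI was found in 75.3% and 81.0% of ILC3 (48.1% and 52.4% after thinning) against 1.10% and 0.778% of B cells (0.254% and 0.250%). Though only 1.28% and 1.06% of cells, ILC3 held 32.1% and 34.6% of all Tnfsf11 UMIs.

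CD4 T cells came next with 194 and 164 CPM (log2 ratio −0.24, −0.44 to −0.05). In this class 18.5% of all genes and 0 of 6 compared members passed 1.5-fold. CD4 T cells with an Il17a or Il17f UMI carried more Tnfsf11 (309.6 and 335 CPM) than those without (151 and 124 CPM), with intervals apart in both libraries. CD8 T cells had 24.5 and 24.9 CPM and ILC2 49.7 and 63.9 CPM.

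Treg cells had 34.3 CPM (48 UMIs) in WT and 53.6 CPM (110 UMIs) in Ring1AKO, a log2 ratio of 0.63 (0.14 to 1.16). This value was just past 1.5-fold and was −0.27 with graph clusters. After thinning it was −1.10, but thinning left few UMIs and its result varies with the draw. In a separate draw 5 of 206 WT and 8 of 221 Ring1AKO Treg cells held a Tnfsf11 UMI (2.43% and 3.62%). Tnfsf11 in dendritic cells (8.98 and 8.32 CPM) came from very few cells. In WT 24 of the 28 UMIs were in 1 cell, and in Ring1AKO 15 of 23 were. By subset it was counted in WT cDC1 cells (14.8 CPM, 0 in Ring1AKO) and in Ring1AKO migratory dendritic cells (23.6 CPM, against 1.62 in WT).

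The receptor RANK (Tnfrsf11a), a gene of the pathway lists, was highest in C1q macrophages, with 35.6 CPM in WT and 38.0 CPM in Ring1AKO. Dendritic cells held 19.6 and 20.6 CPM of it and monocytes 10.3 and 10.9 CPM, so its log2 ratio was 0.08 to 0.14 in these 3 classes. ILC2 (30.3 and 30.8 CPM) and ILC3 (24.7 and 19.3 CPM) stood near them, on under 50 UMIs each.

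**Figure D2:**
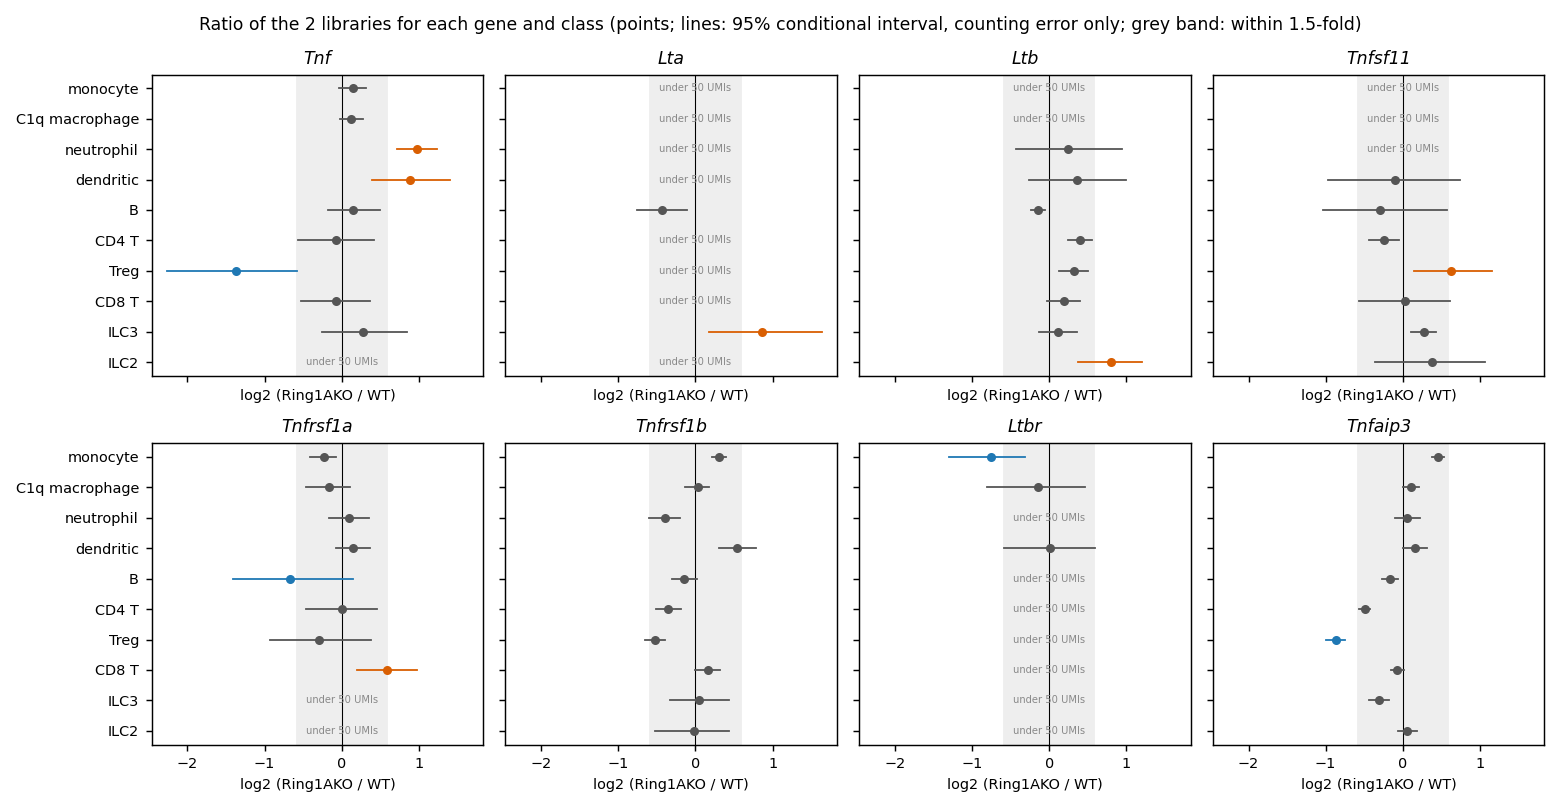
Log2 ratio of Ring1AKO over WT for each gene (panels) and class (vertical axis), with 95% conditional intervals as lines. Orange and blue points were past 1.5-fold higher or lower, grey points lay within the grey band of 1.5-fold, and pairs under 50 UMIs are written out. Tnf was higher in neutrophils (0.97) and dendritic cells (0.88) and lower in Treg cells (−1.37).

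The receptor Tnfrsf1a was widespread in myeloid cells and near 0 in B cells. Neutrophils held 317 and 338 CPM (WT and Ring1AKO), monocytes 247 and 209.8 CPM, C1q macrophages 146 and 129 CPM and dendritic cells 118 and 131 CPM. None of these 4 differed by 1.5-fold. T cell classes were lower, with 32.9 CPM in CD4 T cells of both libraries and 27.2 and 22.4 CPM in Treg cells.

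CD8 T cells had 44.5 CPM (100 UMIs) of Tnfrsf1a in WT and 66.9 CPM (129 UMIs) in Ring1AKO. The log2 ratio, 0.59 (0.20 to 0.98), was on the threshold itself. Among CD8 T cells 18.2% of all genes and 1 of 6 compared members passed. A UMI was present in 21.6% of WT and 32.9% of Ring1AKO CD8 T cells. In B cells Tnfrsf1a was 3.81 CPM (23 UMIs) and 2.43 CPM (43 UMIs), a log2 ratio of −0.67 whose interval (−1.41 to 0.15) held 0. A single WT B cell held 7 of those UMIs, and without the richest cell of each library the ratio was −0.28. The B cell background was 20.2%, with 1 of 7 compared members past 1.5-fold.

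Tnfrsf1b was counted in all 10 classes and in none of them differed by 1.5-fold. Monocytes had 620.1 CPM in WT and 768 CPM in Ring1AKO (log2 ratio 0.31, 0.22 to 0.40), the highest level of the Ring1AKO library. In WT the highest value was in Treg cells, which are known to carry this receptor at high density, though its interval overlapped that of monocytes (604 to 689 against 601 to 639), and with graph clusters monocytes led. Treg cells had 645 and 449 CPM (log2 ratio −0.52, −0.66 to −0.39), neutrophils 596 and 452 CPM (−0.40) and CD4 T cells 296 and 232 CPM (−0.35). The intervals of these 3 lay below 0, as did their values relative to the median gene. Dendritic cells had 83.1 and 121 CPM (log2 ratio 0.54), which became 0.73 and passed 1.5-fold when the median gene was set to 0.

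Ltbr had low levels, highest in monocytes and C1q macrophages, and cells in no gate held 30.5% and 46.2% of its UMIs. Monocytes had 41.9 CPM (280 UMIs) in WT and 24.3 CPM (40 UMIs) in Ring1AKO, a log2 ratio of −0.76 (−1.30 to −0.31). Monocytes had a background of 26.0% past 1.5-fold, and Ltbr was the only one of 5 compared members past it. Relative to the median gene the ratio was −0.58, just within 1.5-fold. After thinning it was −0.19, on few UMIs: in a separate draw 28 WT and 5 Ring1AKO monocytes held one. In the monocytes of cluster 9 alone it was 46.0 and 23.3 CPM (144 and 30 UMIs), a log2 ratio of −0.95 (−1.60 to −0.41). C1q macrophages had 30.7 and 27.5 CPM and dendritic cells 17.3 and 17.4 CPM. CD4 T, CD8 T, Treg and B cells had at most 7 UMIs each in either library.

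Tnfaip3 was counted in every class and most in innate lymphoid cells. ILC3 had 1783 and 1438 CPM (log2 ratio −0.31), ILC2 1666 and 1739 CPM, CD8 T cells 1226 and 1168 CPM and B cells 169 and 151 CPM. Treg cells alone passed 1.5-fold, with 918 CPM (1283 UMIs) in WT and 503 CPM (1032 UMIs) in Ring1AKO. The log2 ratio was −0.87 (−0.99 to −0.75), or −0.79 relative to the median gene. In this class 30.7% of all genes passed 1.5-fold, as did 3 of the 6 compared members. Cell-free barcodes held 731 CPM in WT and 583 CPM in Ring1AKO, which is above the Ring1AKO level of Treg cells. As a mean of per-cell levels the ratio was −0.50, short of 1.5-fold. CD4 T cells were lower as well (1349 and 959 CPM, log2 ratio −0.49), in cells with an Il17 UMI (1388 and 962 CPM) and without (1335 and 959 CPM) alike. Monocytes went the other way with 708 and 973 CPM (log2 ratio 0.46, 0.38 to 0.54), which is 0.63 and past 1.5-fold relative to the median gene. In the monocytes of cluster 9 the levels were 629 and 1037 CPM, a log2 ratio of 0.72 (0.62 to 0.82).

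Myeloid cells with a Tnf UMI carried more Tnfaip3 than cells of the same class without one. In neutrophils the levels were 1218 against 663 CPM in WT and 1436 against 476 CPM in Ring1AKO. The C1q macrophages had 1242 against 597 CPM and 1283 against 699 CPM, and the monocytes 1007 against 520.4 CPM and 1143 against 822 CPM. All 6 pairs of intervals were apart. Nfkbia, which encodes the NF-κB inhibitor IκBα, was also higher in the cells with a Tnf UMI, for example 4973 against 2061 CPM in Ring1AKO neutrophils. Cells with a Tnf UMI were deeper than those without in C1q macrophages (medians of 9568 and 6575.5 UMIs in WT) and slightly shallower in neutrophils (3829 and 4349) and monocytes (9747.5 and 9900.5), and the part of depth was not tested.

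**Figure D3:**
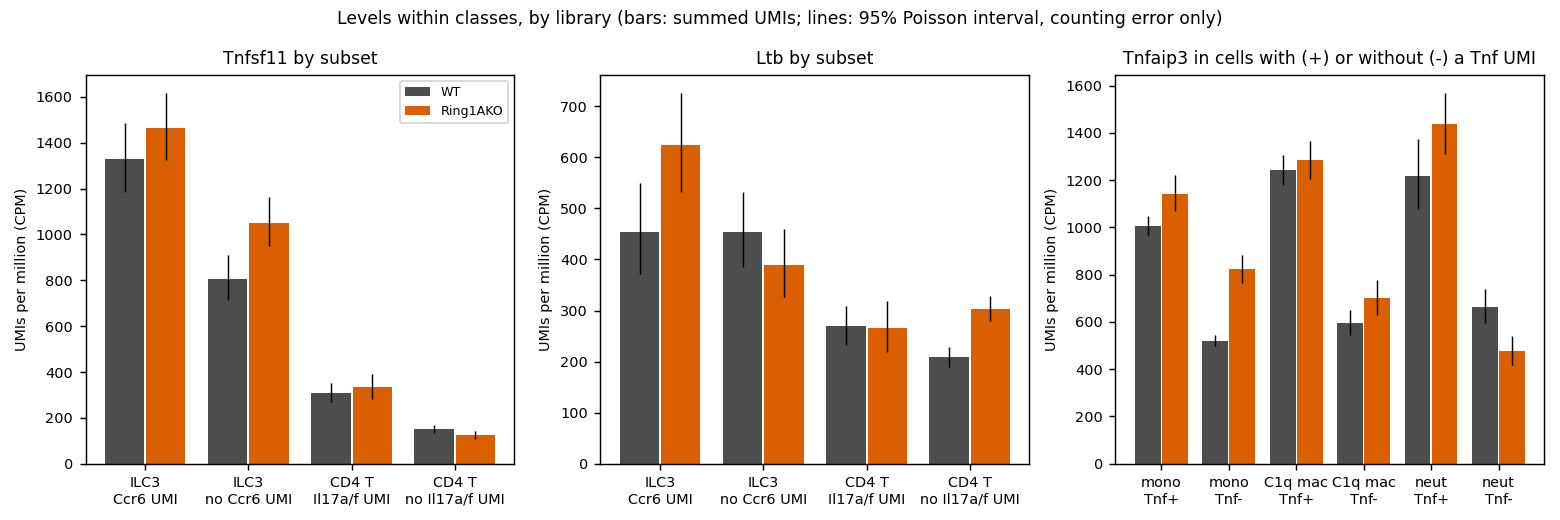
Levels within classes in CPM, with WT bars in grey, Ring1AKO bars in orange and 95% Poisson intervals as lines. The left and middle panels show Tnfsf11 and Ltb in ILC3 with and without a Ccr6 UMI and in CD4 T cells with and without an Il17a or Il17f UMI. The right panel shows Tnfaip3 in monocytes, C1q macrophages and neutrophils with (+) and without (-) a Tnf UMI, where it was higher in Tnf+ cells of all 3 classes and both libraries.

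Over all kept cells the levels also depend on the shares of the classes. Ltb was 73.9 CPM in WT and 123 CPM in Ring1AKO (log2 ratio 0.73) and Lta 4.20 and 6.74 CPM (0.68), whereas Ltbr was 10.1 and 4.42 CPM (−1.19), Tnfrsf1a 69.3 and 41.5 CPM (−0.74), Tnfrsf1b 223 and 153 CPM (−0.54) and Tnf 63.1 and 45.3 CPM (−0.48). The ligands of lymphoid cells were thus higher, and Tnf and the receptors lower, in the library with more B cells and fewer monocytes. Each ratio was split by holding the WT levels of the classes and giving them the Ring1AKO shares of UMIs.

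The split was made in this order only, and the parts can differ in the other order. For 7 of the 8 genes the part of the class shares was the larger in size. It was −0.59 of the −0.48 for Tnf, with the levels within classes adding 0.11. For Lta it was 0.74 of 0.68, for Ltb 0.53 of 0.73, for Tnfrsf1a −0.63 of −0.74 and for Ltbr −0.77 of −1.19. Tnfsf11 was the exception, at 29.1 and 32.0 CPM, with −0.10 from shares and 0.24 from levels. Cells in no gate were one of the groups in this split, so changes among their cell types counted as levels. Shifts within a gated class, such as that among the monocytes, counted as levels too.

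**Figure D4:**
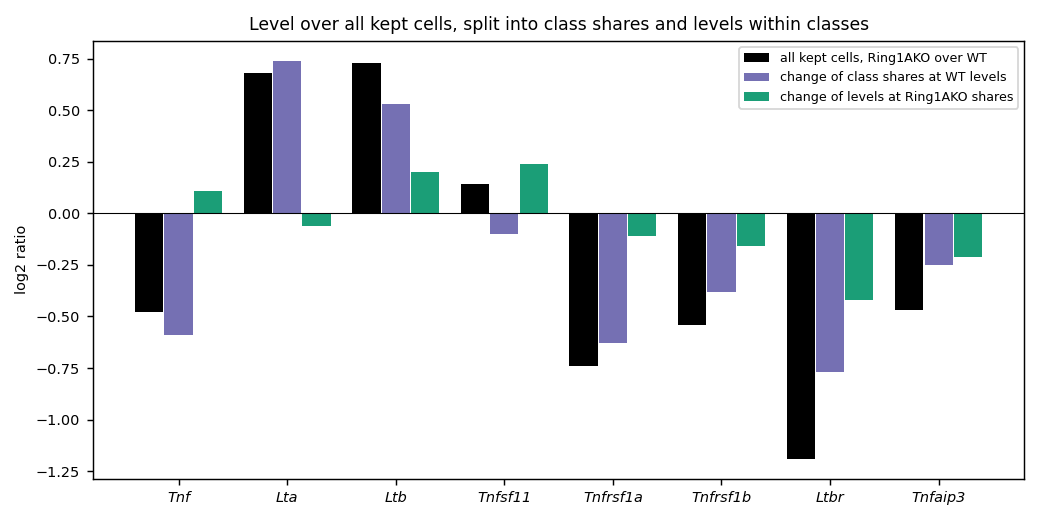
Log2 ratio of Ring1AKO over WT for each gene over all kept cells (black), the part from class shares at WT levels (purple) and the part from levels within classes (green). Purple and green add up to black. In this order of the split, shares were the larger part for every gene but Tnfsf11. For Tnf (−0.48) the part from shares was −0.59 and the part from levels 0.11.

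The classes that held each gene shifted in the same way. Of all Tnf UMIs, monocytes held 30.9% in WT and 10.5% in Ring1AKO, C1q macrophages 24.9% and 20.4%, neutrophils 4.64% and 13.0%, and B cells, at a low level but in large number, 2.49% and 10.1%. The B cell level of Tnf (16.1 and 17.9 CPM) lay under that of cell-free barcodes (71.1 and 50.2 CPM). The part of cell-free transcripts in the B cell share was not tested. B cells held 30.5% and 43.6% of Ltb and 44.6% and 54.0% of Lta. Monocytes held 45.0% and 13.1% of Ltbr. Cells in no gate held 26.4% and 32.0% of the Tnf UMIs, so the gated classes do not account for the whole.

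**Figure D5:**
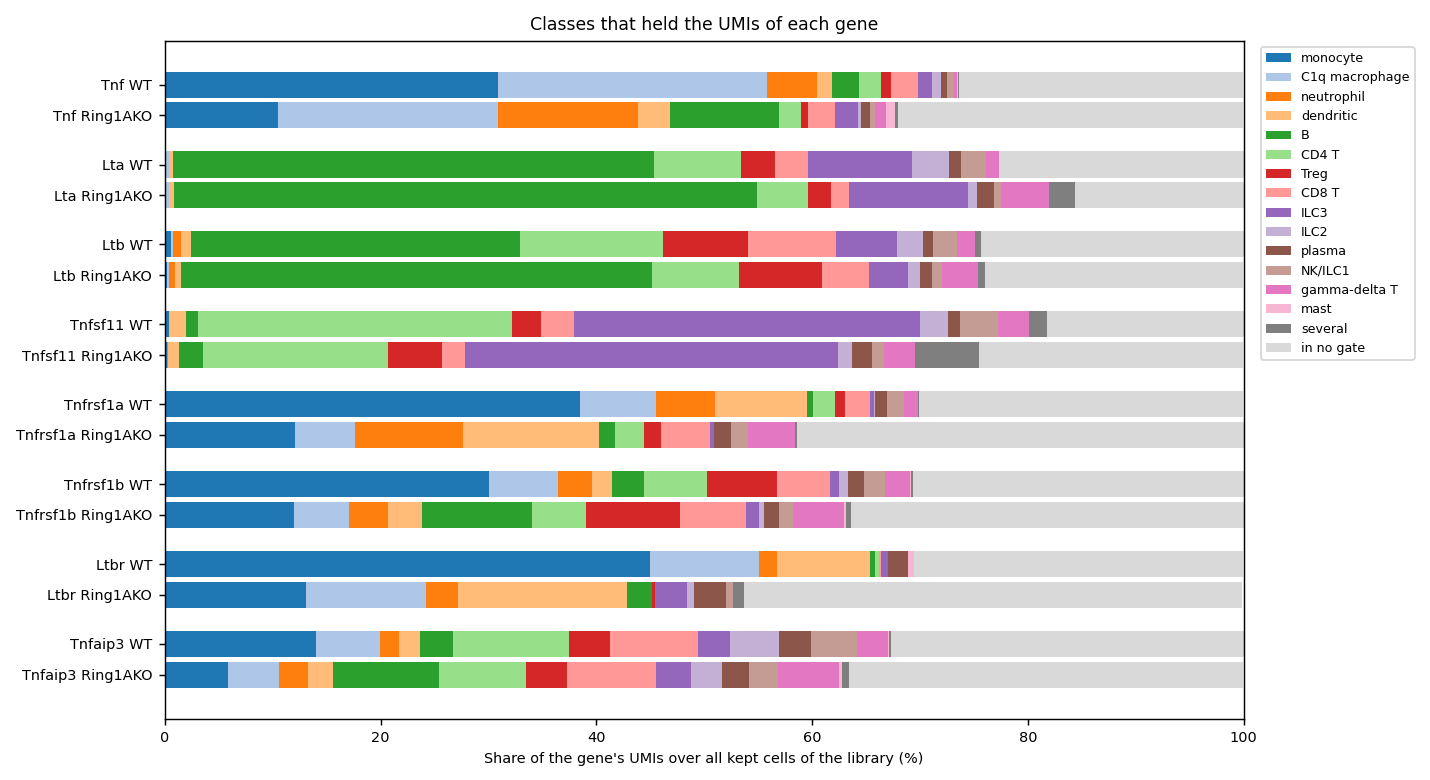
Share of the UMIs of each gene, in percent of all kept cells of a library, by class (colours), with the WT and Ring1AKO bars of a gene beside each other. Of the Tnf UMIs, monocytes held a smaller share in Ring1AKO (30.9% and 10.5%), and neutrophils and B cells a larger one. The B cell level of Tnf was under that of cell-free barcodes. B cells held the largest gated share of Lta and Ltb in both libraries.

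The other genes of the pathway were taken as lists. For the counts below, all genes had 2.30% to 11.8% higher and 11.7% to 21.8% lower by class. Of 10 NF-κB subunits and inhibitors, 13 of 99 pairs with 50 UMIs were higher in Ring1AKO (13.1%) and 5 lower (5.05%), with a median of 0.16. Nfkbia had the highest median (0.52) and was past 1.5-fold in 4 classes, as in monocytes (3049 and 5077 CPM). Rel, which encodes c-Rel, had the lowest (−0.40), with −1.07 in Treg cells. Of 19 adaptors, kinases and sheddase genes, 0 of 147 pairs were higher and 26 lower (17.7%, within the range of all genes), with a median of −0.21. Adam17, the gene of the protease that releases TNF, was among the lowest, with 40.0 and 17.6 CPM in CD8 T cells (log2 ratio −1.16).

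Of 11 genes that restrain the pathway, 4 of 96 pairs were higher (4.17%) and 17 lower (17.7%, both within the range of all genes; median −0.17), and 10 of those 17 were 1 gene. Cyld, which encodes a deubiquitinase of the TNF receptor complex, was lower past 1.5-fold in 10 of 10 classes, also relative to the median gene (−1.34 to −0.61). Its level was 135 and 53.3 CPM in neutrophils, 63.5 and 32.1 CPM in monocytes and 186 and 88.6 CPM in Treg cells. The 10 classes come from the same 2 libraries and are not repeats of each other. The share of all genes that were lower in every class was not counted. Among 12 further ligands and receptors, 1 of 30 pairs was higher (3.33%) and 5 lower (16.7%, median −0.01). Fas, the death receptor, was one of them, with 26.0 and 9.22 CPM in B cells and 18.6 and 31.8 CPM in dendritic cells. Tnfsf14 (LIGHT), another ligand of Ltbr, was within 1.5-fold in the 6 classes compared.

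Targets known to be induced by TNF differed in both directions, with 33 of 116 pairs higher (28.4%) and 27 lower (23.3%), above the range of all genes (51.7% past 1.5-fold, median 0.25). Cxcl1, a neutrophil chemoattractant, was higher in 6 of 6 classes, at 554 and 2224 CPM in C1q macrophages and 289 and 1294 CPM in monocytes. Sod2 and Bcl2a1b also had medians above 0 (0.42 and 0.55). Cxcl10, an interferon-responsive chemokine, was lower in 7 of 10 classes, at 1634 and 331 CPM in monocytes and 527 and 50.9 CPM in neutrophils. Il1b and Ptgs2 were lower in neutrophils (24508 and 14373 CPM, and 4217 and 1901 CPM). Il1b was lower in 5 and higher in 0 of the 9 classes compared. Among the 5 were CD8 T cells (181 and 37.8 CPM) and ILC2 (231 and 46.3 CPM), far under monocytes (11917 and 13839.6 CPM). The part of cell-free transcripts in such low levels was not tested. In monocytes 8 of 14 targets were higher and 1 lower. In those of cluster 9 alone 9 of 14 were higher and 0 lower, and Cxcl10 there was 277 and 335 CPM (log2 ratio 0.28) where the whole class had been lower. In C1q macrophages 7 of 14 were higher and 1 lower. In neutrophils, where Tnf was higher, 2 of 13 targets were higher and 5 lower. Many other stimuli induce these genes.

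Chemokine and adhesion genes that lymphotoxin induces in stroma were low in the 10 classes. Only Ccl21a in B cells reached 50 UMIs, with 1 in WT and 224 in Ring1AKO, of which 209 were in 1 cell that also held 3 of the 4 endothelial markers. Over all kept cells Ccl21a had 210 UMIs in WT, 200 of them in 1 cell, and 1011 in Ring1AKO, 299 of them in 1 cell, and most lay outside the gates (203 and 773). Digestion genes over all classes had 4 of 100 pairs higher and 9 lower, with a median of −0.01.

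The 20 levels of each gene (10 classes in 2 libraries) were correlated with those of 10968 genes as log2(CPM + 10), as a description without a test, since the sums share libraries, depth and the gates. Tnf was most like Fcgr3, an Fc receptor of myeloid cells (Pearson r 0.94), Tnfrsf1a most like Efhd2 (0.95) and Ltbr most like Creg1 (0.96). For Ltb it was Ppp1r16b (0.96), for Lta Gem (0.94), for Tnfsf11 Xlr4c (0.96) and for Tnfaip3 Fosl2, an AP-1 factor (0.93). Tnfrsf1b had the loosest match, with Vsir at 0.88. Among the 8 genes, Lta went with Tnfsf11 (0.81) and Ltb (0.74), and Tnf with Ltbr (0.73) and Tnfrsf1a (0.72). Ltb ran against Ltbr (−0.82) and Tnfrsf1a (−0.77), and the neighbours Tnf and Lta did not go together (−0.27). Outside ILC3 and B cells Lta was under the 10 CPM that were added, so its correlations rest mainly on these classes.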

How the data were processed

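Sorted CD45+ colonic lamina propria cells were sequenced as 2 10x 3′ libraries, WT and Ring1AKO. The deposited matrices, which the authors made with Cell Ranger, give UMI counts per barcode and gene (32228 genes), not normalized and with empty barcodes included. The sources differ on versions: the submitters' processing notes name Cell Ranger 6.0.2 and mm39, and the study's methods name an older release and mm10. Seurat is also named in the notes. Coordinates here are GRCm38, in whose GENCODE vM21 annotation 32099 of the gene IDs were found.

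Barcodes with at least 1000 UMIs, at least 500 genes and an mt- share under 5% were kept (387 and 501 cells were removed by the last filter). Each kept cell was classed by counts of detected marker genes. Cells that passed several gates (10 and 30) were left out of the classes and no doublet caller was run. Gate thresholds were set after class yields and leading genes had been seen, with the 8 genes in no gate. The 8 genes, the pathway lists and the alternatives were chosen with earlier results of these data known.

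UMIs were summed per class and library and scaled to 1000000 UMIs (CPM). Log2 ratios had 1 UMI added to each sum, and their intervals are exact conditional intervals of the raw counts. Levels have exact Poisson intervals and shares of cells Clopper-Pearson intervals. A count of 0 was given the limit of 3 counts. Barcodes under 100 UMIs were taken as free of cells. Up to 3 genes with the highest and 3 with the lowest median ratio were eligible to be named from each list, among genes with 50 UMIs in 5 or more classes, and genes of a list named outside this rule (Tnfrsf11a, Ccl21a) were chosen after their values were seen. Python 3.11.15 with numpy 2.4.6, scipy 1.17.1 and pandas 2.3.3 was used, and the scripts were tested on simulated data. Alternatives were the barcode filters, gates, graph clusters (scikit-learn 1.9.0, python-igraph 0.11.9, 26 clusters), scalings, thinning to 1000 UMIs a cell, subtraction of the cell-free profile, size thresholds, leaving out the richest cells and limiting monocytes to 1 cluster.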

Additional observations from a re-analysis of the deposited data

Results flagged for a closer look

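Signals were also found in gated classes outside the 10. In plasma cells Ltb was 2.66 CPM in WT and 6.18 CPM in Ring1AKO (log2 ratio 1.20), under the 64.1 and 101 CPM of cell-free barcodes. Tnfsf11 in plasma cells was 1.24 and 2.47 CPM (log2 ratio 0.96), and 23 of the 40 UMIs in Ring1AKO were in 1 cell. Of all genes in plasma cells 31.2% passed 1.5-fold. In γδ T cells Ltb was 104 CPM (76 UMIs) in WT and 232 CPM (278 UMIs) in Ring1AKO, a log2 ratio of 1.15 (0.79 to 1.55) beside a background of 17.8%. Graph clusters 5 and 23 were mainly γδ T cells among their gated cells. Cluster 5 held 396 WT and 523 Ring1AKO cells, and cluster 23 held 33 and 93. The γδ class was not split by cluster, so its mixture may differ between the libraries.

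For Tnf and Tnfrsf1a the ratio of the libraries went in opposite directions in different classes, and the differences between classes were not tested. Tnf was higher in Ring1AKO neutrophils (0.97) and dendritic cells (0.88) and lower in Treg cells (−1.37). Its dendritic and Treg levels were under those of cell-free barcodes. Tnfrsf1a was higher in Ring1AKO CD8 T cells (0.59) and lower in B cells (−0.67), where the interval (−1.41 to 0.15) held 0 and the ratio was −0.28 without the richest cells and 0.14 with the cell-free profile subtracted at 5%.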

How the results depend on the processing

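No paired analysis was possible because WT and Ring1AKO were 1 library each. Against 6 pairs higher and 4 lower, 2-fold gave 0 and 1, at least 200 UMIs 3 and 2, the mean of per-cell levels 5 and 2, the median gene set to 0 8 and 2, and thinning 8 and 8. Graph clusters gave 4 and 5, and the other settings 5 to 8 higher and 3 to 6 lower. The share of all genes was not counted at these settings, so these counts have no background. Thinned pairs were admitted on their UMIs before thinning and can hold under 50 after it. Of 741 ratios over 13 alternatives (2 of them, without the richest cell and with no UMI added, chosen after seeing the data), 660 stayed inside the counting interval of the reported ratio. Of the 10 ratios past 1.5-fold, 2 changed sign in some setting. Tnfsf11 in Treg cells was −0.27 with graph clusters and, on few UMIs, −1.10 after thinning. Tnfrsf1a in B cells was 0.14 with the cell-free profile subtracted at 5%. The causes were not tested. Tnfrsf1a in CD8 T cells, Tnf in dendritic cells and neutrophils, Ltb in ILC2, Ltbr in monocytes and Tnfaip3 in Treg cells fell within 1.5-fold in at least 1 setting without a change of sign. With the monocytes limited to cluster 9, also chosen after seeing the data, Tnf moved from 0.14 to 0.91, past 1.5-fold, and Ltbr from −0.76 to −0.95. Lta and Ltbr reached 50 UMIs in only 2 and 3 of 10 classes, so few of their pairs were compared.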
